A study of Mus musculus with 10 samples.

Results

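The Wnt pathway regions described here are the open chromatin windows whose nearest gene, as the deposited peak lists name it, encodes a Wnt ligand, a Frizzled, Lrp5, Lrp6 or an Lgr receptor, a secreted modulator (Dkk, Sfrp, Rspo, Sost, Wif1), Axin1, Axin2, Apc, Nkd1, Nkd2, beta-catenin (Ctnnb1) or a factor of the TCF/LEF family. They were chosen by gene name alone, and they number 156 of 35534 regions found in at least 1 of the 4 lists. Of 58 gene symbols in RefSeq that fit these names, 38 had a window and 20 had none under their own name. The 20 were the ligand genes Wnt2, Wnt3, Wnt7a, Wnt8a, Wnt8b and Wnt9b, the receptor genes Fzd3, Fzd4, Fzd6, Fzd10 and Lgr5, and the modulator genes Dkk1, Dkk4, Rspo1, Rspo3, Rspo4, Sfrp1, Sfrp4, Sfrp5 and Sost. By role, the 156 regions fell to 13 ligand genes (45 regions), 10 receptor genes (49), 5 genes of secreted modulators (19), 5 genes of intracellular regulators (13) and 5 genes of the transcriptional arm (30).

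The cells were MC3T3-E1, an established line of mouse osteoblasts, profiled by ATAC-seq, in which a transposase inserts sequencing adapters into open chromatin. The 4 groups of 2 libraries each were cells given TNFa and BMP4 together, cells given TNFa, cells given BMP4, and untreated cells, and 2 libraries of sonicated DNA served as background. All groups were first kept in 2.5% serum for 30 min. In the protocol text TNFa was added at 10 ng/ml for 30 min ahead of BMP4 at 10 ng/ml for 3 h, while the sample labels state 3 h for TNFa. Titles of the TNFa libraries, and of no others, include p65, and the labels give no reason. No genetic change is named in the labels, and the subclone of the line is not stated in them. The labels place every library in a single batch and say nothing of separate cultures, so the p-values below rest on differences among these libraries only, and those may be technical.

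Wnt ligands are secreted proteins that bind a Frizzled receptor together with the co-receptor Lrp5 or Lrp6. Without a ligand, a complex built on Axin and Apc marks beta-catenin for degradation. With one, beta-catenin accumulates, enters the nucleus and binds TCF/LEF factors on target genes. Dkk proteins block the co-receptors, Sfrp proteins and Wif1 bind the ligands, and R-spondins act through Lgr receptors to keep Frizzleds at the cell surface. In bone the pathway is known for driving osteoblast formation, and loss of Lrp5 lowers bone mass in humans and mice.

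Total tags per library, in units of 1000000, were 16.5 to 21.8 in the 4 that received TNFa and 26 to 30.1 in the 4 that did not. A level is given as CPM, the tags recovered in a window per 1000000 tags in all tested windows after TMM scaling, for each library. In the 57 tested Wnt pathway windows a library held 4 to 707 tags, with a median of 48. On a scale of tags per 10000000 total tags, the median over these 57 windows was 17.9 to 26.4 in the 8 libraries, against 1.62 and 1.61 in the background libraries, and each of the 57 lay above the background mean in each of the 8 libraries. The authors had called these windows against the same background libraries, so levels above background follow largely from that selection. The second BMP4 library and the second untreated library stood apart from their partners. Their values on the first principal component over all tested windows, which held 63.3% of the variance, were 95.9 and 94.3, against -73.9 to 41.8 in the other 6 libraries. The TNFa pair was also split on this component, at -58.5 and 41.8, and the second library had the higher value in each of the 4 groups. Promoter windows were listed for 6, 5, 6 and 6 of 12 osteoblast marker genes with TNFa+BMP4, TNFa, BMP4 and no treatment, for 0 of 5 muscle and 0 of 5 endothelial markers, and in each group for 1 of 8 haematopoietic (Runx3), 1 of 5 chondrocyte (Sox9) and 1 of 5 adipocyte markers (Cebpa).

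The regions lay far from gene starts more often than open chromatin at large. Of the 156 regions, 20 (12.8%) were annotated as promoter, against 28.5% of all regions, 72 (46.2%) as intergenic, against 33.0%, and 55 (35.3%) as intronic, against 33.8%. Their median distance from the nearest gene start was 20676 bp, against 9057 bp for all regions. A distance of over 50000 bp was recorded for 40 of them (25.6%), against 19.7% of all regions, so a window's gene name is a statement of proximity. Fzd8, a receptor gene, was named for windows as far as -670210 bp from its start. Of the 156 regions, 12 lay inside a different gene by the files' own annotation. Among them, 5 windows named Wnt11 lay in Uvrag, 3 named Fzd5 in Plekhm3, 2 named Fzd1 in Cdk14 and 2 named Wnt7b in the non-coding gene AU022754.

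Promoter sequence was available from RefSeq (GRCm38.p6, the build called mm10 in the file headers) for 48 promoters of 39 of the 58 genes, each running from 250 bases before to 50 bases after the start. A window lay in 11 of these promoters, which belong to 10 genes. The 5 windows below are those of receptor and TCF genes that were listed in all 4 groups and lie wholly before the start and inside one of these RefSeq stretches, given at their coordinates in the untreated list. They are shown 5′ to 3′ on the gene's strand, with CpG dinucleotides in capitals, because these promoters are rich in CpG.
Fzd5, chr1:64737876-64738000, - strand: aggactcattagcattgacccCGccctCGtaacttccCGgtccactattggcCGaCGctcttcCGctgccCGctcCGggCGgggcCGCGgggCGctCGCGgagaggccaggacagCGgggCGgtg
Fzd7, chr1:59481978-59482102, + strand: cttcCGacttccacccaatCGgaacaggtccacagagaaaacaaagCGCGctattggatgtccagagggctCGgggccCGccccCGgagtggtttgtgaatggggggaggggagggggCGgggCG
Lgr4, chr2:109917490-109917614, + strand: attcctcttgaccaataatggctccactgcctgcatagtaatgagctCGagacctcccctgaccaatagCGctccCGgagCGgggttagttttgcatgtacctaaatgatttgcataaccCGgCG
Tcf7l1, chr6:72789163-72789287, - strand: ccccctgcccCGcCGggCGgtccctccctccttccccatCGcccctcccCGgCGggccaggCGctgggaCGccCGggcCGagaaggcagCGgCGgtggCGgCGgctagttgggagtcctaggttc
Tcf7l2, chr19:55741581-55741705, + strand: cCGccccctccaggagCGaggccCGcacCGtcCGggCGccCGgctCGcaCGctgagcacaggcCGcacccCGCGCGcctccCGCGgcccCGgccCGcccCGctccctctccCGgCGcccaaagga
The Tcf7l2 window holds 20 CpG in 125 bases and 83.2% G and C, and its coordinates were identical in the 4 lists. The Lgr4 window is the least CpG-rich of the 5, with 6 CpG and 51.2% G and C. Over the full promoter length, the 11 promoters with a window had a median of 34 CpG (18 to 53) and 72.7% G and C, against 23 CpG and 62.0% over the 7783 promoters with a window of any gene. On either strand, none of the 11 held the TCF/LEF core CTTTGA, which 10.9% of the 7783 open promoters hold. None held the AP-1 site TGANTCA (4.95%) or a restricted form of the NF-kB site (1.75%) on either strand. That form is narrower than the NF-kB consensus, and other forms of the site were not searched for. The absence says only that the letters searched for are not in these stretches.

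**Figure D1:**
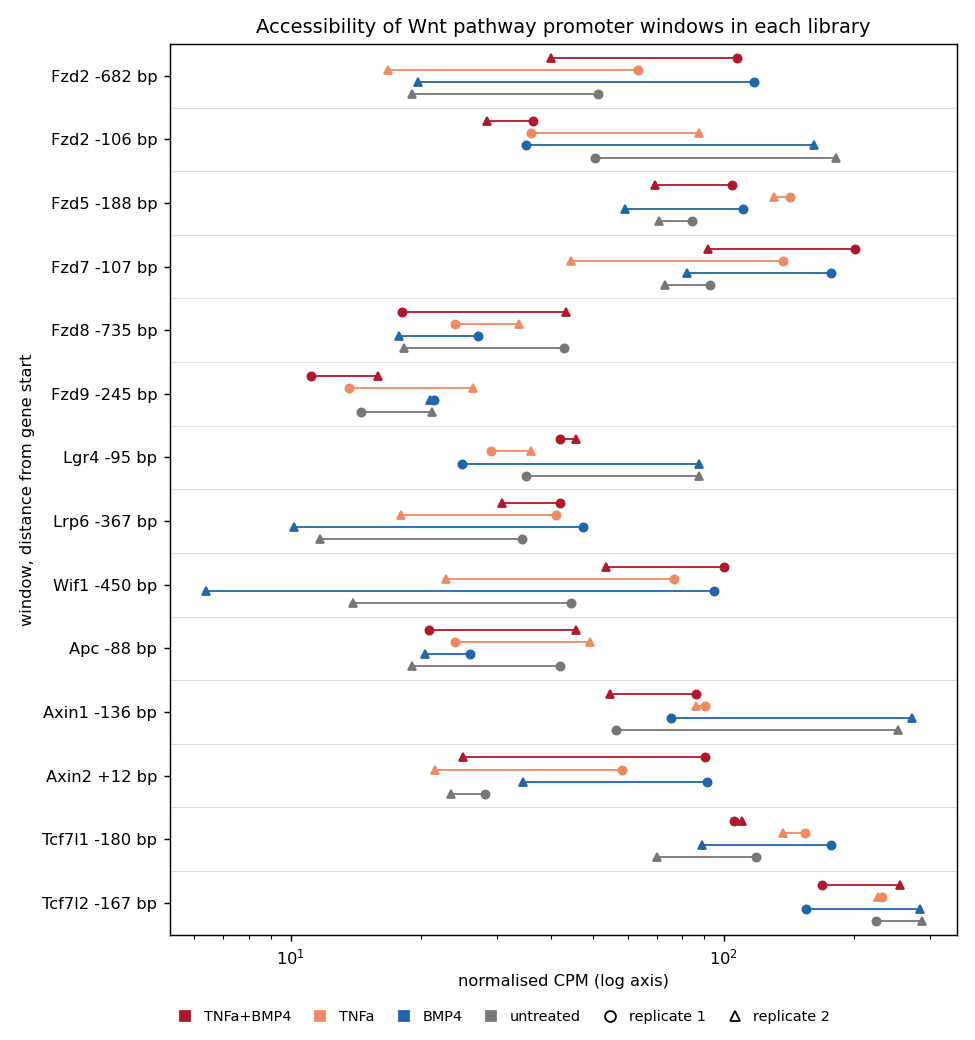
Normalised CPM (x axis, log scale) of the 14 tested promoter windows of Wnt pathway genes (y axis, gene and distance of the window's centre from the start) in each library. Colours give the group, circles and triangles the replicates, and each line joins the replicates of a group. The lines of different groups overlap for most genes, and the Wif1 and Axin1 windows spread widely between the BMP4 replicates.

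Among the 14 tested promoter windows, that of Tcf7l2 was high in every library and that of Fzd9 low in every library. The Tcf7l2 promoter, which belongs to a TCF factor that binds beta-catenin, had 168 and 255 CPM with TNFa+BMP4, 232 and 227 with TNFa, 155 and 283 with BMP4, against 225 and 286 in untreated cells. The promoter of Tcf7l1, a TCF factor known mainly as a repressor, had 106 and 110.4 CPM with TNFa+BMP4, 154 and 137 with TNFa, 177 and 89.2 with BMP4, against 119 and 70.3 in untreated cells. The Fzd9 promoter, whose receptor is required for normal bone formation in mice, had 11.1 and 15.9 CPM with TNFa+BMP4, 13.7 and 26.4 with TNFa, 21.4 and 21 with BMP4, against 14.5 and 21.2 in untreated cells. Each treated group overlapped the untreated one at Tcf7l2 and Fzd9, whereas both TNFa libraries exceeded both untreated ones at Tcf7l1. The Tcf7l1 window started at 72789201 in both lists with TNFa, against 72789163 in the untreated list and 72789164 in the BMP4 list. The part of this shift in the Tcf7l1 levels was not tested.

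Receptor promoters differed in how well their replicates matched. The Fzd5 promoter had 104 and 69.4 CPM with TNFa+BMP4, 142 and 131 with TNFa, 111 and 59.2 with BMP4, against 84.5 and 71 in untreated cells, so both TNFa libraries lay above the libraries of the other groups. The Fzd7 promoter had 200.5 and 92.2 CPM with TNFa+BMP4, 137 and 44.4 with TNFa, 177 and 82.1 with BMP4, against 93.1 and 73.2 in untreated cells. The Lgr4 promoter, whose product binds R-spondins, had 41.8 and 45.5 CPM with TNFa+BMP4, 29.1 and 36 with TNFa, 24.8 and 87.9 with BMP4, against 35 and 87.9 in untreated cells. In the Lgr4 window the second BMP4 and the second untreated library were the high ones, and at Fzd7 each treated group overlapped the untreated one.
Fzd2 had a pair of promoter windows. The window at -682 bp had 107 and 39.8 CPM with TNFa+BMP4, 63.2 and 16.8 with TNFa, 117 and 19.7 with BMP4, against 51.2 and 19 in untreated cells. The window at -106 bp had 36.2 and 28.4 CPM with TNFa+BMP4, 35.9 and 87.6 with TNFa, 35 and 162 with BMP4, against 50.4 and 182 in untreated cells. The replicate order was opposite in these neighbours: the second libraries were lower at -682 bp in all 4 groups, and at -106 bp they were higher in all but the TNFa+BMP4 group. At -106 bp both TNFa+BMP4 libraries lay below both untreated ones, and a recovered tag count there was 0.16 from a whole number. The promoter window of Lrp6, a co-receptor, had 41.8 and 30.7 CPM with TNFa+BMP4, 41 and 18 with TNFa, 47.4 and 10.2 with BMP4, against 34.2 and 11.7 in untreated cells. The Fzd8 promoter had 18.1 and 43.2 CPM with TNFa+BMP4, 23.9 and 33.6 with TNFa, 27.1 and 17.8 with BMP4, against 42.7 and 18.3 in untreated cells. Neither gene's window separated any group from the untreated cells.

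Axin2, a scaffold protein and a standard feedback target of the pathway, had 90.5 and 25 CPM with TNFa+BMP4, 58.1 and 21.6 with TNFa, 91.4 and 34.4 with BMP4, against 28.2 and 23.4 in untreated cells in a window that spans its start. Both BMP4 libraries exceeded both untreated libraries there, while the TNFa+BMP4 and TNFa groups each overlapped the untreated one. The Axin1 promoter had 86.3 and 54.6 CPM with TNFa+BMP4, 90.6 and 86.4 with TNFa, 75.6 and 272 with BMP4, against 56.4 and 252 in untreated cells. Its second BMP4 and second untreated libraries were the high ones. The promoter of Apc, the second scaffold of the complex, had 20.9 and 45.5 CPM with TNFa+BMP4, 23.9 and 49.2 with TNFa, 25.9 and 20.4 with BMP4, against 41.9 and 19 in untreated cells. Wif1, a secreted Wnt-binding inhibitor, had 100.3 and 53.5 CPM with TNFa+BMP4, 76.9 and 22.8 with TNFa, 94.8 and 6.37 with BMP4, against 44.4 and 13.9 in untreated cells. Both TNFa+BMP4 libraries exceeded both untreated ones at Wif1. The Wif1 replicates differed by more than any pair of its group means in the BMP4 group.

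No tested Wnt pathway window passed the test in any comparison. The test covers only windows listed in all 4 groups, 57 of the 156 Wnt pathway regions. Regions missing from a list were not tested. Across all 14451 windows limma called 0 at an adjusted p under 0.05 in each of the 6 comparisons (0.0% of tested windows each), and voom weights gave 0 as well. At an unadjusted p under 0.05, 361 of 14451 windows (2.50%) and 1 of 57 Wnt pathway windows were found for TNFa+BMP4 against untreated cells. For TNFa against untreated cells these were 147 windows (1.02%) and 0 of 57. For BMP4 against untreated cells they were 26 (0.18%) and 0 of 57. Set against TNFa alone, TNFa+BMP4 gave 37 (0.256%) and 0 of 57, and against BMP4 alone 232 (1.61%) and 1 of 57. The interaction, the difference between the TNFa effect with and without BMP4, gave 0 windows of either kind (0.0%), and its coefficient was above 0 in 33 of 57 windows (57.9%), against 53.9% of all windows. The standard error of a log2 fold change was 0.46 to 1.16 over the 57 windows (median 0.63). In bulk libraries, fewer cells with an open site and a less open site in each cell cannot be told apart.

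**Figure D2:**
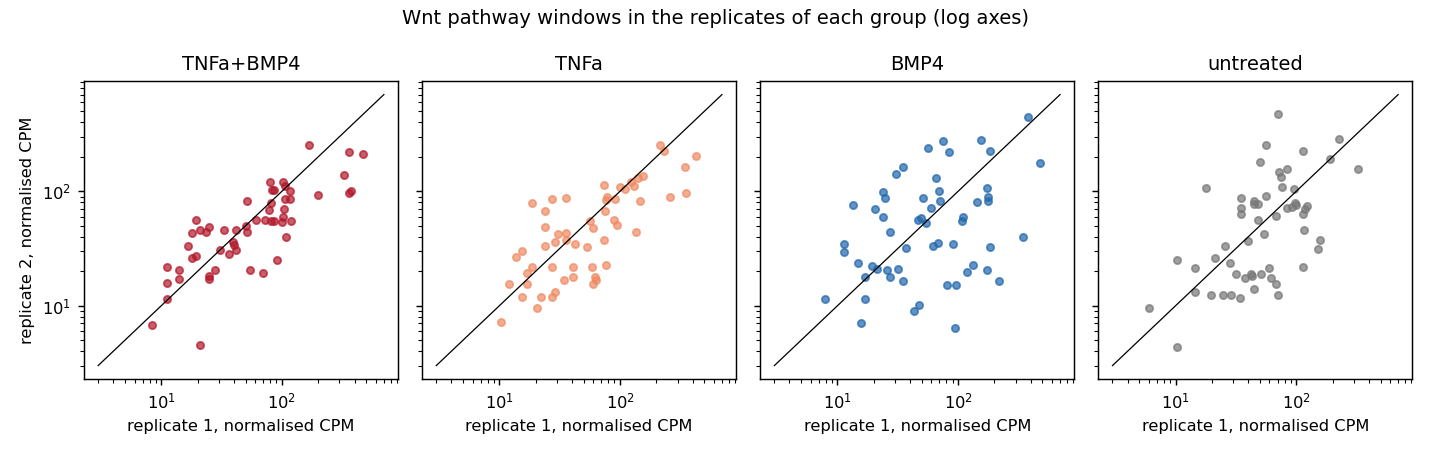
Normalised CPM of the 57 tested Wnt pathway windows in replicate 2 (y axis) against replicate 1 (x axis) of each group, both on log axes, with the line of equality. The points of the BMP4 and untreated groups scatter most widely about the line.

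Replicates differed most in the BMP4 and untreated groups. Between partners the median absolute log2 ratio over the 57 windows was 0.53 with TNFa+BMP4, 0.65 with TNFa, 0.99 with BMP4 and 0.87 in untreated cells. Over all tested windows it was 0.61, 0.69, 1.05 and 0.78 in the same order of groups.

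The windows of ligand genes and those of receptor and TCF/LEF genes had medians on opposite sides of 0 in 3 comparisons of a group given TNFa with one not given it, but the ligand medians were close to 0 for TNFa and just under 0 for TNFa+BMP4 without the second untreated library. For TNFa+BMP4 against untreated cells the median log2 fold change was 0.27 over the 16 ligand windows (12 above 0), -0.35 over the 19 receptor windows (6 above 0) and -0.38 over the 16 windows of the transcriptional arm (5 above 0). For TNFa against untreated cells it was 0.51 (13 of 16 above 0), -0.60 (6 of 19) and -0.24 (2 of 16). For TNFa+BMP4 against BMP4 it was 0.80 (12 of 16), -0.52 (6 of 19) and -0.27 (3 of 16). Over all tested windows 48.9%, 49.0% and 50.1% were above 0 in these 3 comparisons. The windows of a role share genes, with 10 of the 16 in the transcriptional arm named Tcf7l2 and 8 of the 16 ligand windows named Wnt10a or Wnt10b, so they are not independent. The ligand medians rested on the second untreated and second BMP4 libraries: without the second untreated library they were -0.0008 for TNFa+BMP4 (8 of 16 above 0) and 0.04 for TNFa (8 of 16), and without the second BMP4 library the median against BMP4 was 0.19 (10 of 16). The receptor median for TNFa against untreated cells was -0.26 without the second untreated library and -0.25 without the second TNFa library, and the transcriptional median for TNFa+BMP4 against untreated cells was -0.12 without the second untreated library.
For BMP4 against untreated cells the medians were 0.18 for ligands, 0.06 for receptors and 0.08 for the transcriptional arm. The ligand median was -0.63 without the second untreated library (4 of 16 above 0) and -0.49 without the first BMP4 library (5 of 16). The transcriptional median was -0.48 without the second BMP4 library and -0.26 without the first untreated library, and the receptor median was 0.25 without the second BMP4 library, 0.17 without the first and -0.0040 without the first untreated library. For TNFa+BMP4 against TNFa the medians were -0.03, -0.01 and 0.05, and leaving out 1 library at a time gave -0.28 to 0.21 for ligands, -0.0449 to 0.19 for receptors and 0.0199 to 0.35 for the transcriptional arm. Over all 57 windows the median was -0.02 for TNFa+BMP4 against untreated cells, -0.10 for TNFa, 0.08 for BMP4, -0.05 for TNFa+BMP4 against TNFa and -0.10 against BMP4.

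**Figure D3:**
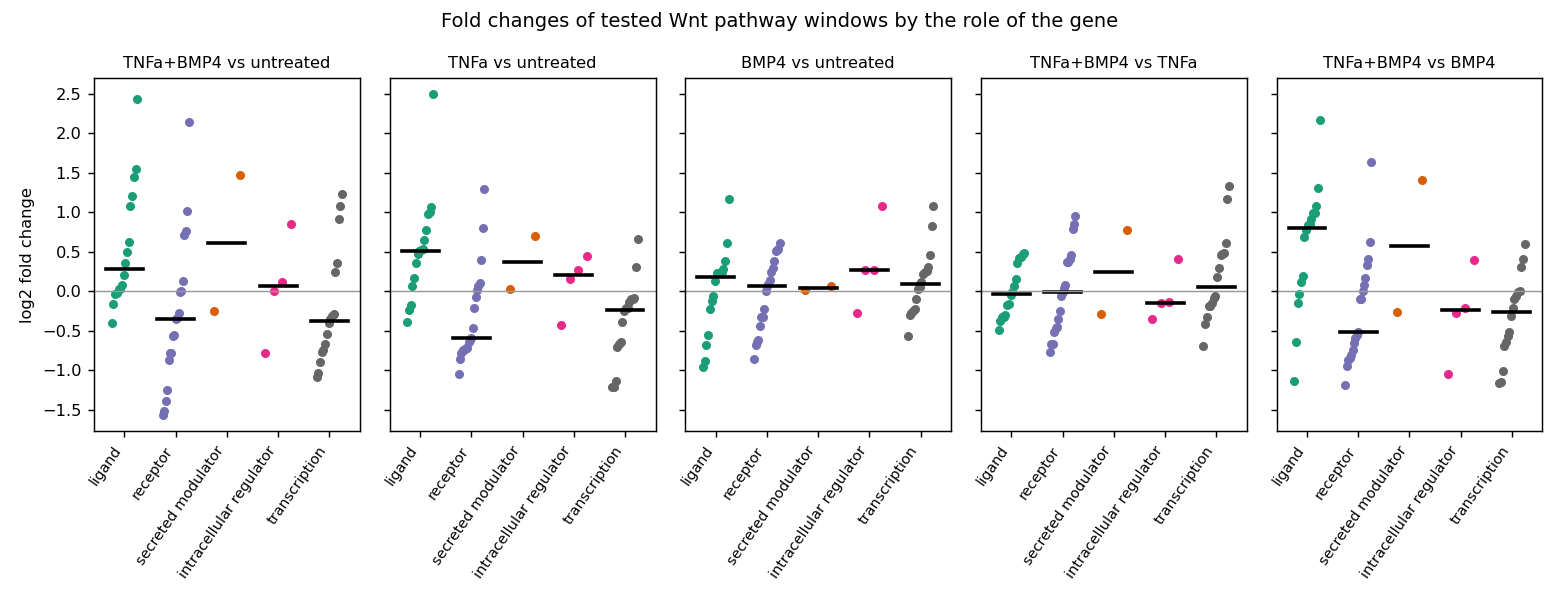
Log2 fold change (y axis) of each of the 57 tested Wnt pathway windows, by the role of the named gene (x axis), in 5 comparisons. Points are windows and black bars are medians. Ligand medians lie above 0 and receptor and transcription medians below 0 in the panels TNFa+BMP4 vs untreated, TNFa vs untreated and TNFa+BMP4 vs BMP4, and without the second untreated library the ligand median for TNFa+BMP4 vs untreated is -0.0008.

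Counting windows in which the libraries of 2 groups did not overlap was a second way to describe these values, and it uses no test. With TNFa+BMP4, 5 of 57 windows (8.77%) lay wholly above untreated cells and 15 (26.3%) wholly below, against 15.6% and 17.6% of all windows. With TNFa, 7 (12.3%) lay above and 11 (19.3%) below, against 8.52% and 10.9%. With BMP4, 1 (1.75%) lay above and 5 (8.77%) below, against 7.92% and 9.1%. TNFa+BMP4 lay above TNFa in 8 windows (14.0%) and below in 9 (15.8%), against 8.3% and 9.05%, and above BMP4 in 8 (14.0%) and below in 12 (21.1%), against 12% and 12.9%. The 7 windows above untreated cells with TNFa were 4 of 16 ligand, 2 of 19 receptor and 1 of 16 transcriptional windows. The 11 below were 0 ligand, 4 receptor and 7 transcriptional windows. With TNFa+BMP4, 2 ligand windows lay above untreated cells and 1 below, 1 receptor window above and 7 below, and 1 transcriptional window above and 6 below. Of secreted modulators 1 window lay above and 1 below.

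After these values had been seen, the 4 libraries that received TNFa were set against the 4 without it. All 4 lay below the other 4 in 5 of 57 Wnt pathway windows (8.77%), against 2.65% of all windows, and above them in 0, against 1.81%. The 5 windows were in introns of Lrp5, Tcf7l1 and Tcf7l2, the last with 3 of them. With levels scaled by total tags instead, 4 windows were below, against 2.43% of all windows, and 2 were above, against 1.49%. Those below were the Lrp5 window, 2 of the Tcf7l2 windows and the Wnt10a window at 25011 bp. Those above were a Fzd1 window and the Wnt10a window at 14788 bp. Without the second BMP4 and second untreated libraries 7 windows were below, against 5.34% of all windows, and 0 above, against 4.8%. The libraries with TNFa were also those with fewer tags, and the part of depth in this count was not tested. Libraries given BMP4 and those without it separated in 0 of 57 windows in either direction, against 0.754% above and 0.851% below over all windows.

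**Figure D4:**
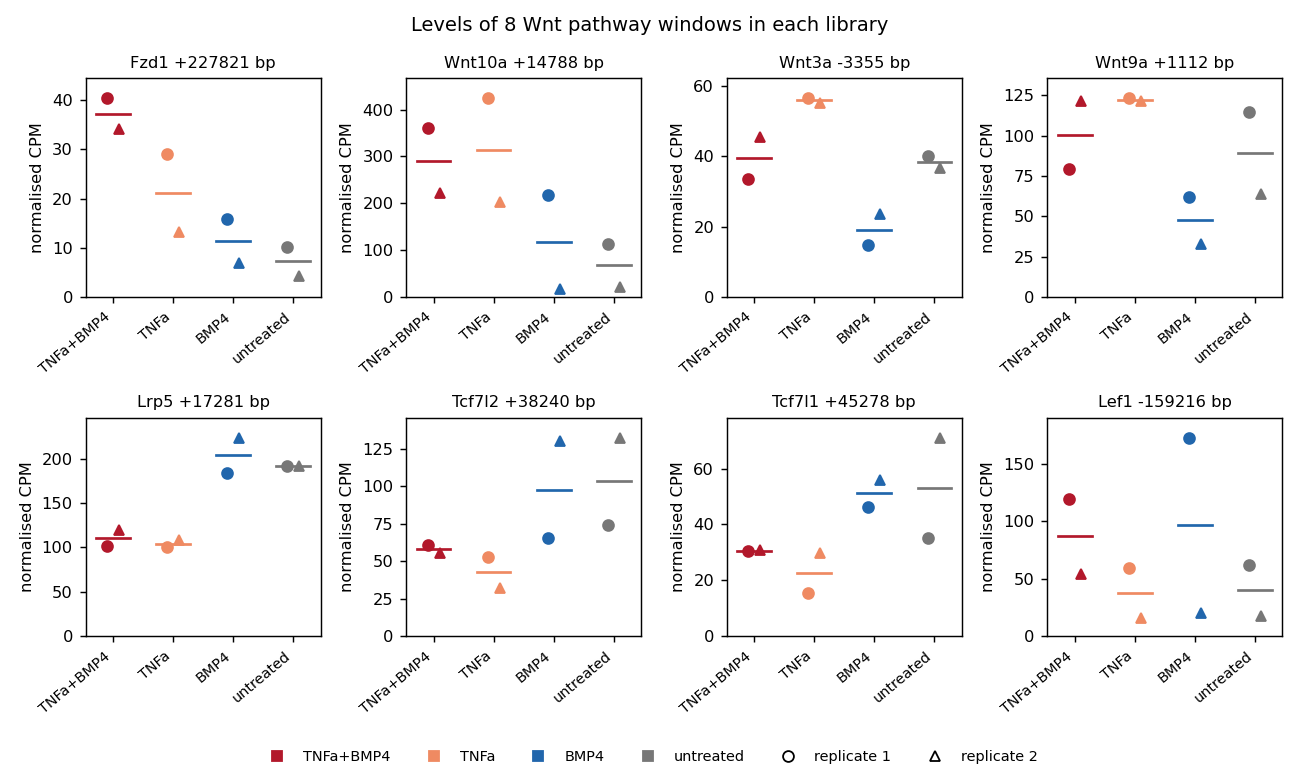
Normalised CPM (y axes start at 0) of 8 Wnt pathway windows in each library, by group. Bars mark group means, circles replicate 1 and triangles replicate 2. The Lrp5, Tcf7l2 and Tcf7l1 windows are lower in all 4 libraries given TNFa than in the 4 without it, and the Fzd1 window is highest with TNFa+BMP4.

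Among ligand genes, the largest difference was at Wnt10a, whose product is known to favour osteoblast over fat cell formation in mouse cells. The intergenic window chr1:74806745-74806869, 14788 bp after the Wnt10a start, had 361 and 222 CPM with TNFa+BMP4, 424 and 203 with TNFa, 217 and 16.6 with BMP4, against 114 and 22 in untreated cells. All 4 values with TNFa exceeded both untreated ones, and the second BMP4 and second untreated libraries were the lowest. TNFa against untreated cells gave a log2 fold change of 2.49 ± 1.16 (SE), unadjusted p = 0.0628, adjusted p = 1.0, and TNFa+BMP4 against untreated cells a log2 fold change of 2.44 ± 1.16 (SE), unadjusted p = 0.0674, adjusted p = 0.898. Without the second untreated library these log2 fold changes were 1.38 and 1.33. A recovered tag count in this window was 0.12 from a whole number.
The next window, at 15225 bp, had 376 and 101 CPM with TNFa+BMP4, 356 and 97.2 with TNFa, 143 and 80.9 with BMP4, against 76.9 and 109.9 in untreated cells, and its untreated libraries overlapped the TNFa+BMP4 and TNFa groups. Another Wnt10a window, at 16262 bp, had 83.5 and 102 CPM with TNFa+BMP4, 132 and 112 with TNFa, 54.2 and 52.9 with BMP4, against 99.9 and 76.2 in untreated cells. Both BMP4 libraries were the lowest there, and BMP4 against untreated cells gave a log2 fold change of -0.69 ± 0.49 (SE), unadjusted p = 0.201, adjusted p = 1.0. The remaining tested Wnt10a window, at 25011 bp, went the other way with TNFa. It had 25.1 and 18.2 CPM with TNFa+BMP4, 27.4 and 21.6 with TNFa, 37.2 and 31.8 with BMP4, against 25.6 and 33 in untreated cells. Its log2 fold change against untreated cells was -0.24 ± 0.48 (SE) for TNFa and -0.41 ± 0.48 (SE) for TNFa+BMP4.

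Windows of Wnt3a and Wnt9a, both on chromosome 11, had their lowest levels with BMP4. The window chr11:59294044-59294168, -3355 bp from the start of Wnt3a, the ligand most used to activate beta-catenin signalling in culture, had 33.4 and 45.5 CPM with TNFa+BMP4, 56.4 and 55.2 with TNFa, 14.7 and 23.6 with BMP4, against 40.1 and 36.6 in untreated cells. Both BMP4 libraries lay below all 6 others. BMP4 against untreated cells gave a log2 fold change of -0.97 ± 0.50 (SE), unadjusted p = 0.0853, adjusted p = 1.0, and TNFa+BMP4 against BMP4 a log2 fold change of 0.99 ± 0.50 (SE), unadjusted p = 0.079, adjusted p = 0.989.
The first intron of Wnt9a, a ligand gene with a role in joint formation in mice, held a window at chr11:59307980-59308104 with 79.4 and 122 CPM with TNFa+BMP4, 123 and 121 with TNFa, 62.1 and 33.1 with BMP4, against 114 and 63.7 in untreated cells. Its BMP4 libraries were again the lowest, below all 6 others. BMP4 against untreated cells gave a log2 fold change of -0.88 ± 0.58 (SE), unadjusted p = 0.163, adjusted p = 1.0, and TNFa+BMP4 against BMP4 a log2 fold change of 1.08 ± 0.58 (SE), unadjusted p = 0.0961, adjusted p = 0.989. The BMP4 value was -0.45 without the second BMP4 library and -0.47 without the first untreated library, and the value against BMP4 was 0.65 without the second BMP4 library.

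The Wnt7b window at -52823 bp changed direction when 1 library was left out. Wnt7b is a ligand that promotes bone formation in mice. The window had 359 and 96.7 CPM with TNFa+BMP4, 215 and 256 with TNFa, 381 and 450.2 with BMP4, against 70.9 and 470.2 in untreated cells, so the first untreated library and the second TNFa+BMP4 library were low. BMP4 against untreated cells gave a log2 fold change of 1.17 ± 0.90 (SE), unadjusted p = 0.227, adjusted p = 1.0, which turned to -0.18 without the first untreated library and was 2.55 without the second. Its interaction was the lowest of the 57, at -1.49 ± 1.27 (SE), unadjusted p = 0.271, adjusted p = 1.0. That value was -0.14 without the first untreated library, -2.87 without the second, -0.56 without the second TNFa+BMP4 library and -2.46 without the first. Wnt11, a ligand known mainly for beta-catenin-independent signalling, was named for a window at 123900 bp, inside Uvrag, with 117 and 85.3 CPM with TNFa+BMP4, 88.9 and 56.4 with TNFa, 95.9 and 15.3 with BMP4, against 68.3 and 15.4 in untreated cells. TNFa+BMP4 against untreated cells gave a log2 fold change of 1.54 ± 0.93 (SE), unadjusted p = 0.134, adjusted p = 0.898, and the log2 fold change was 0.57 without the second untreated library and 2.55 without the first. The second BMP4 and second untreated libraries were low in it. Wnt2b, a further ligand gene, had a window at -31193 bp with 27.9 and 20.5 CPM with TNFa+BMP4, 27.4 and 12 with TNFa, 19.2 and 22.3 with BMP4, against 31.6 and 19 in untreated cells and no separation between groups.
Wnt10b, whose product raises bone mass in mice, had 4 tested windows with log2 fold changes for TNFa against untreated cells of 0.07 to 0.98, none past an unadjusted p of 0.05. Its strongest window, at -2543 bp, had 474 and 212 CPM with TNFa+BMP4, 344 and 162 with TNFa, 482 and 177 with BMP4, against 323 and 157 in untreated cells, and its first library exceeded the second in all 4 groups.

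Among receptor genes, a distant window named Fzd1 was the single Wnt pathway window past an unadjusted p of 0.05 in the fit by group. It lies at chr5:4530333-4530457, 227821 bp from the start of Fzd1, a Frizzled receptor gene, in intergenic sequence. Its level was 40.4 and 34.1 CPM with TNFa+BMP4, 29.1 and 13.2 with TNFa, 15.8 and 7.00 with BMP4, against 10.2 and 4.39 in untreated cells. The TNFa+BMP4 libraries lay above all 6 others, and both untreated libraries below both TNFa libraries. TNFa+BMP4 against untreated cells gave a log2 fold change of 2.15 ± 0.61 (SE), unadjusted p = 0.00734, adjusted p = 0.898, and against BMP4 a log2 fold change of 1.63 ± 0.61 (SE), unadjusted p = 0.0274, adjusted p = 0.989. TNFa against untreated cells gave a log2 fold change of 1.30 ± 0.61 (SE), unadjusted p = 0.0654, adjusted p = 1.0, TNFa+BMP4 against TNFa 0.85 ± 0.61 (SE), unadjusted p = 0.201, adjusted p = 1.0, and the interaction 0.33 ± 0.87 (SE), unadjusted p = 0.711. The background libraries held 2 and 2 tags in it. A neighbouring window, at 227479 bp, was listed for both groups with TNFa and not for the others, with 22.3 and 39.8 CPM with TNFa+BMP4 and 20.5 and 9.60 with TNFa. Without the second untreated library the log2 fold change of the first window against untreated cells was 1.70 (unadjusted p = 0.058, limma). Against BMP4 it was 1.13 without the second BMP4 library (unadjusted p = 0.15), 1.51 without the first TNFa+BMP4 library (unadjusted p = 0.111) and 1.76 without the second (unadjusted p = 0.0675). For TNFa against untreated cells it was 0.79 without the first TNFa library and 0.84 without the second untreated library, and for TNFa+BMP4 against TNFa it was 0.33 without the second TNFa library and 1.38 without the first.
Other windows named Fzd1 differed in the order of their groups. The 5' UTR window at 620 bp, in every list but that of BMP4, had 69.6 and 26.2 CPM with TNFa+BMP4, 51.3 and 10.8 with TNFa, against 35.9 and 12.4 in untreated cells, with overlapping groups. The window in the 5' UTR at 102 bp had 51.5 and 44.4 CPM with TNFa+BMP4, 35.9 and 37.2 with TNFa, 71.1 and 82.8 with BMP4, against 44.4 and 76.9 in untreated cells. The window at -235123 bp, in an intron of Cdk14, had 18.1 and 26.2 CPM with TNFa+BMP4, 30.8 and 42 with TNFa, 20.3 and 70.0 with BMP4, against 44.4 and 82 in untreated cells, with all TNFa+BMP4 values below both untreated ones. There TNFa+BMP4 against untreated cells gave a log2 fold change of -1.39 ± 0.67 (SE), unadjusted p = 0.0696, adjusted p = 0.898.

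The 3 tested Lrp5 windows each had a log2 fold change below 0 for TNFa against untreated cells (-1.05 to -0.62). None of the 3 passed an unadjusted p of 0.05 in the fit by group. The window chr19:3669221-3669345 in the first intron of Lrp5 had 102 and 119.5 CPM with TNFa+BMP4, 101 and 108 with TNFa, 184 and 224 with BMP4, against 191 and 191 in untreated cells, and here the replicates lay close together in each group, with all 4 libraries given TNFa below the 4 without it. TNFa against untreated cells gave a log2 fold change of -0.86 ± 0.46 (SE), unadjusted p = 0.0948, adjusted p = 1.0, TNFa+BMP4 against untreated cells a log2 fold change of -0.78 ± 0.46 (SE), unadjusted p = 0.123, adjusted p = 0.898, and TNFa+BMP4 against BMP4 a log2 fold change of -0.87 ± 0.46 (SE), unadjusted p = 0.0928, adjusted p = 0.989. BMP4 against untreated cells gave 0.08 ± 0.46 (SE). A second window in the same intron, at 5040 bp, had 19.5 and 55.8 CPM with TNFa+BMP4, 27.4 and 85.2 with TNFa, 30.5 and 141 with BMP4, against 71.7 and 146 in untreated cells, with TNFa+BMP4 against untreated cells at -1.57 ± 0.91 (SE), unadjusted p = 0.119, adjusted p = 0.898. Without the first TNFa+BMP4 library this was -0.85, and without the second untreated library -1.03. Both TNFa+BMP4 libraries lay below both untreated ones there.
Fzd8 had 4 tested windows, of which the one at -670210 bp had 50.1 and 50.1 CPM with TNFa+BMP4, 73.5 and 37.2 with TNFa, 49.6 and 58.6 with BMP4, against 97.4 and 79.1 in untreated cells. Untreated cells were the highest group in it, above all 6 treated libraries. TNFa+BMP4 against untreated cells gave a log2 fold change of -0.79 ± 0.54 (SE), unadjusted p = 0.181, adjusted p = 0.898.

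Of the transcriptional arm, Tcf7l2 held 15 of the 156 regions, more than any other Wnt pathway gene, and 10 of its regions were tested. In intron 4, the window chr19:55779988-55780112 had 61.3 and 55.8 CPM with TNFa+BMP4, 53 and 32.4 with TNFa, 65.5 and 130.5 with BMP4, against 74.3 and 133 in untreated cells. The 4 libraries given TNFa were the lowest 4, and TNFa against untreated cells gave a log2 fold change of -1.22 ± 0.59 (SE), unadjusted p = 0.0721, adjusted p = 1.0. Without the second untreated library it was -0.78. In the window at 73781 bp the levels were 54.3 and 20.5 CPM with TNFa+BMP4, 42.7 and 34.8 with TNFa, 107 and 54.8 with BMP4, against 67.5 and 60.8 in untreated cells, and TNFa+BMP4 against BMP4 gave a log2 fold change of -1.15 ± 0.62 (SE), unadjusted p = 0.1, adjusted p = 0.989. Without the second TNFa+BMP4 library this was -0.48, without the first -1.83, and without the first BMP4 library -0.67.
Another intronic window, which the files place at -43368 bp from a start further downstream, had 80.8 and 54.6 CPM with TNFa+BMP4, 75.2 and 67.2 with TNFa, 83.5 and 221 with BMP4, against 83.7 and 157 in untreated cells. TNFa+BMP4 against BMP4 gave a log2 fold change of -1.01 ± 0.64 (SE), unadjusted p = 0.147, adjusted p = 0.989, with -0.32 without the second BMP4 library and -1.70 without the first. In these 3 windows all libraries with TNFa lay below all without it, by a margin as narrow as 54.3 against 54.8 CPM at 73781 bp and 80.8 against 83.5 CPM at -43368 bp.
In intron 3 of Tcf7l1, the window chr6:72743705-72743829 had 30.6 and 30.7 CPM with TNFa+BMP4, 15.4 and 30.0 with TNFa, 46.3 and 56 with BMP4, against 35 and 71 in untreated cells, with TNFa against untreated cells at -1.14 ± 0.57 (SE), unadjusted p = 0.0762, adjusted p = 1.0. The log2 fold change was -0.62 without the second untreated library and -0.70 without the first TNFa library. Another window of that intron, at 48251 bp, had 16.7 and 33 CPM with TNFa+BMP4, 35.9 and 43.2 with TNFa, 27.1 and 43.9 with BMP4, against 48.7 and 56.4 in untreated cells. Untreated cells were highest in it, and TNFa+BMP4 against untreated cells gave a log2 fold change of -1.09 ± 0.54 (SE), unadjusted p = 0.0772, adjusted p = 0.898, with -0.63 without the first TNFa+BMP4 library.
Lef1, whose product binds beta-catenin and whose gene is itself a common target of the pathway, had a pair of tested windows far before its start. The window at -159216 bp had 119.8 and 54.6 CPM with TNFa+BMP4, 59.8 and 15.6 with TNFa, 173 and 20.4 with BMP4, against 62.4 and 17.6 in untreated cells, and that at -158826 bp had 102 and 59.2 CPM with TNFa+BMP4, 61.5 and 18 with TNFa, 183 and 32.5 with BMP4, against 59.8 and 21.2 in untreated cells. The first BMP4 library was the highest and its partner among the lowest, so a BMP4 against untreated difference of 1.07 ± 0.94 (SE) at the second window turned to -0.13 without it and was 0.41 without the second untreated library. TNFa+BMP4 overlapped TNFa in both windows, with log2 fold changes of 1.33 ± 1.09 (SE, unadjusted p = 0.253) and 1.16 ± 0.94 (SE, unadjusted p = 0.251) and an adjusted p of 1.0 for each by limma. These were 0.43 and 0.33 without the second TNFa library and 2.26 and 2.01 without the first. Ctnnb1, the beta-catenin gene, had a promoter window in the BMP4 list (9.03 and 43.9 CPM with BMP4) and another in the untreated list (6.83 and 46.9 CPM in untreated cells), each with a far higher second library.
Tcf7, a further TCF gene, had an untested intronic window and a tested one at -38714 bp with 19.5 and 27.3 CPM with TNFa+BMP4, 17.1 and 15.6 with TNFa, 11.3 and 29.3 with BMP4, against 24.8 and 12.4 in untreated cells, where each treated group overlapped the untreated one. A Tcf7l1 window at 77551 bp, named here after its values were seen, was absent from the TNFa list and had 40.4 and 22.8 CPM with TNFa+BMP4, 134 and 180.2 with BMP4, against 91.4 and 206 in untreated cells. Both TNFa+BMP4 values lay below the values of the other groups there. A window overlapping it in the TNFa list had 101 and 48 CPM with TNFa.

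The remaining intracellular regulators, Nkd1 and Nkd2, bind Dishevelled and dampen the pathway. Nkd2 had 5 regions, of which the tested one at -16020 bp was weak, with 8.36 and 6.83 CPM with TNFa+BMP4, 10.3 and 7.20 with TNFa, 7.90 and 11.5 with BMP4, against 5.98 and 9.52 in untreated cells. Nkd1 had 2 untested regions, and the one at 28255 bp, absent from the TNFa+BMP4 list, had 51.3 and 31.2 CPM with TNFa, 47.4 and 55.4 with BMP4, against 66.6 and 112 in untreated cells. Ligand and receptor genes with no tested window were Wnt1, Wnt4, Wnt5a, Wnt5b, Wnt6, Wnt16 and Lgr6. The Wnt1 promoter window, in every list but that of BMP4, had 16.7 and 68.3 CPM with TNFa+BMP4, 22.2 and 78 with TNFa, against 36.7 and 35.1 in untreated cells.

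Secreted modulators were thinly covered. Dkk3, an atypical Dkk family member, had 12 regions, of which the 1 tested, at -5541 bp, had 11.1 and 11.4 CPM with TNFa+BMP4, 20.5 and 9.60 with TNFa, 16.9 and 11.5 with BMP4, against 14.5 and 13.2 in untreated cells. Dkk2 had a pair of windows, at -216879 bp and -216599 bp, that were listed in all groups but overlapped by less than 63 bp, so they were not tested. The first of the Dkk2 pair had 78 and 101 CPM with TNFa+BMP4, 68.4 and 87.6 with TNFa, 54.2 and 12.1 with BMP4, against 60.6 and 30.8 in untreated cells, and the second 102 and 96.7 CPM with TNFa+BMP4, 85.5 and 44.4 with TNFa, 63.2 and 36.9 with BMP4, against 52.1 and 41.7 in untreated cells. Each TNFa+BMP4 value of the pair exceeded each BMP4 and each untreated value, over windows whose coordinates differ between lists. Sfrp2 had 1 region, in the TNFa list, and Rspo2 had 2, 1 each in the TNFa and BMP4 lists.

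Which list holds a window was a second readout, without a replicate, because the authors called each list on pooled libraries. The lists held 100 Wnt pathway windows of 23745 with TNFa+BMP4, 105 of 23288 with TNFa, 112 of 24525 with BMP4 and 119 of 26230 in untreated cells. All 4 lists shared 61 of the 156 regions (39.1%), against 42.5% of all regions. Regions in both lists with TNFa and no others numbered 7 (4.49%, against 4.18%), and those in the BMP4 and untreated lists only numbered 11 (7.05%, against 7.36%). Both lists with BMP4 and no others held 2 (1.28%, against 2.57%), and the TNFa and untreated lists only held 7 (4.49%, against 2.84%). TNFa and BMP4 lists alone, or TNFa+BMP4 and untreated lists alone, shared 0, against 0.726% and 1.02%. Regions missing from 1 list numbered 9 without TNFa+BMP4 (5.77%, against 4.18%), 10 without TNFa (6.41%, against 3.5%), 8 without BMP4 (5.13%, against 4.45%) and 8 without the untreated list (5.13%, against 2.3%). Regions in a single list numbered 4 with TNFa+BMP4 (2.56%, against 6.26%), 5 with TNFa (3.21%, against 4.32%), 11 with BMP4 (7.05%, against 5.83%) and 13 in untreated cells (8.33%, against 7.92%).

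**Figure D5:**
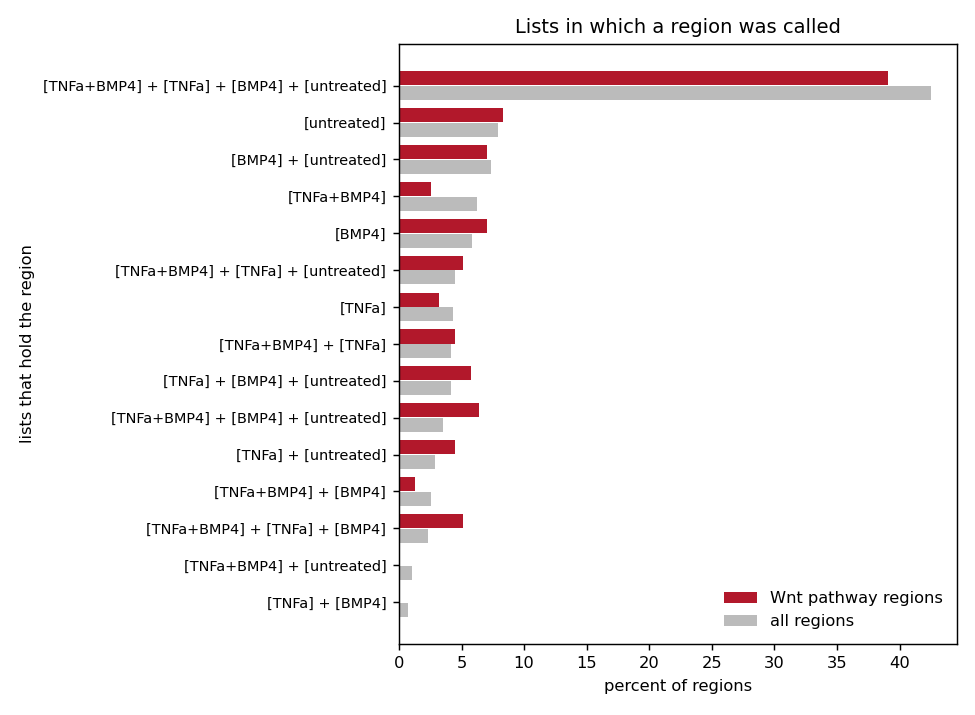
Share of the 156 Wnt pathway regions and of all 35534 regions (x axis, percent) found in each combination of the 4 lists (y axis). Regions in all 4 lists make up 39.1% of the Wnt pathway regions and 42.5% of all regions.

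Most partial patterns changed when windows within 500 bp were joined, since a window centred elsewhere then counts as present. Of the 118 joined Wnt pathway regions, 61 (51.7%) were in all lists, against 53.4%, and only 1 was left in both lists with TNFa and no others. That region, in intron 3 of Tcf7l2 at 8061 bp, had 6.96 and 12.5 CPM with TNFa+BMP4 and 6.84 and 12 with TNFa. The other 6 of the 7 had a window of at least 1 other list within 500 bp. They included an Lrp6 promoter window with 54.3 and 17.1 CPM with TNFa+BMP4 and 49.6 and 13.2 with TNFa, and Fzd7 windows with 6.96 and 17.1 CPM with TNFa+BMP4 and 12 and 27.6 with TNFa at -72147 bp and 12.5 and 34.1 CPM with TNFa+BMP4 and 17.1 and 24 with TNFa at 5584 bp. Dkk3 had such windows with 26.5 and 10.2 CPM with TNFa+BMP4 and 32.5 and 10.8 with TNFa at -5949 bp and 18.1 and 72.8 CPM with TNFa+BMP4 and 49.6 and 91.2 with TNFa at -20898 bp.
Of the 11 regions in the BMP4 and untreated lists only, 9 had no window of the other lists within 500 bp. Lef1 at -177802 bp had 29.3 and 4.46 CPM with BMP4 and 10.2 and 5.13 in untreated cells. Axin2 at 43698 bp had 9.03 and 21.6 CPM with BMP4 and 8.54 and 13.2 in untreated cells. Tcf7l2 at 11254 bp had 4.51 and 17.8 CPM with BMP4 and 8.54 and 21.2 in untreated cells. All of these were under 30 CPM in each library.
Tcf7l1 at 22890 bp had 12.4 and 22.9 CPM with BMP4 and 9.39 and 20.5 in untreated cells. Lrp6 at 54210 bp had 21.4 and 8.28 CPM with BMP4 and 13.7 and 6.59 in untreated cells. Dkk3 at -10931 bp had 6.77 and 44.6 CPM with BMP4 and 6.83 and 36.6 in untreated cells. In the Dkk3 window the second libraries of both groups were the high ones.
Of the ligand genes in this pattern, Wnt4, which acts in bone and kidney development in mice, had 16.9 and 48.4 CPM with BMP4 and 15.4 and 41 in untreated cells at 9768 bp. Wnt11 had 15.8 and 60.5 CPM with BMP4 and 36.7 and 62.2 in untreated cells at 22405 bp and 11.3 and 21 CPM with BMP4 and 11.1 and 18.3 in untreated cells at 65150 bp. Fzd7 at -72215 bp had 5.64 and 14.7 CPM with BMP4 and 24.8 and 18.3 in untreated cells and Dkk3 at -21107 bp had 15.8 and 73.2 CPM with BMP4 and 76.9 and 70.3 in untreated cells, and these last 2 have a window of both other lists within 500 bp.
The pair of regions in both lists with BMP4 were a Wnt5b intron window with 76.6 and 22.8 CPM with TNFa+BMP4 and 71.1 and 7.00 with BMP4, near a window of the TNFa list, and a Tcf7l2 intron window with 13.9 and 15.9 CPM with TNFa+BMP4 and 10.2 and 14.7 with BMP4. The 7 regions in the TNFa and untreated lists only included the single Wnt5a region, with 10.3 and 20.4 CPM with TNFa and 11.1 and 28.6 in untreated cells. Wnt5a is the best known ligand of beta-catenin-independent signalling. Wnt4 had 20.5 and 19.2 CPM with TNFa and 30.8 and 39.5 in untreated cells in the 3' UTR, Wnt11 53 and 52.8 CPM with TNFa and 48.7 and 55.7 in untreated cells at -18810 bp, and Wnt2b 8.55 and 20.4 CPM with TNFa and 9.39 and 29.3 in untreated cells at -6417 bp. The receptor windows of this pattern were those of Fzd7 with 17.1 and 33.6 CPM with TNFa and 33.3 and 13.2 in untreated cells and Fzd8 with 5.13 and 10.8 CPM with TNFa and 10.2 and 20.5 in untreated cells, and Tcf7l2 had 58.1 and 16.8 CPM with TNFa and 47.8 and 13.2 in untreated cells at 96696 bp. Levels in lists that do not hold a window were not analysed here.

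The rest of the pathway gave no call either. Of 64 further pathway genes, 50 had a window and 36 a tested one, 76 windows in all. At an adjusted p under 0.05 limma called 0 of them higher and 0 lower in any of the 6 comparisons, against 0.0% of all tested windows. For TNFa+BMP4 against untreated cells 34 of the 76 were above 0 (median -0.08), and for TNFa 33 (median -0.09). The smallest unadjusted p among them, 0.0163, belonged to an intronic window of Gpc6, which encodes a glypican, with 13.9 and 12.5 CPM with TNFa+BMP4, 22.2 and 21.6 with TNFa, 29.3 and 34.4 with BMP4, against 39.3 and 35.2 in untreated cells (log2 fold change -1.37 ± 0.46 for TNFa+BMP4 against untreated cells, SE, adjusted p = 0.898).
Of 21 target genes of the pathway, 13 had a tested window, 51 windows in all, and 0 of them were called higher and 0 lower in any comparison. For TNFa against untreated cells 31 of the 51 were above 0 (median 0.16), and for TNFa+BMP4 26 (median 0.15). An intronic window of Runx2, the master transcription factor of osteoblasts, had 57.1 and 26.2 CPM with TNFa+BMP4, 54.7 and 31.2 with TNFa, 143 and 112 with BMP4, against 102 and 124 in untreated cells. All libraries with TNFa lay below all without it in this window, with a log2 fold change of -1.66 ± 0.59 for TNFa+BMP4 against BMP4 (SE, unadjusted p = 0.021, adjusted p = 0.989). Other intronic Runx2 windows went both ways for TNFa+BMP4 against untreated cells. The window at 143394 bp had a log2 fold change of -1.36 ± 0.59 (SE, unadjusted p = 0.0485, limma). That at 75862 bp had 1.14 ± 0.56 (SE, unadjusted p = 0.0724, limma), and the adjusted p was 0.898 for each.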

How the data were processed

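Reads were handled by the submitters with HOMER 4.11, deepTools 3.5.1, Picard 2.25.1, Bowtie2 2.5.1 and Trimmomatic 0.39 on build mm10, as listed in the submitters' processing notes, and no source states a transposase offset. Peaks of 125 bp were called by the authors with HOMER for each group on pooled replicates against both background libraries, at an adjusted p-value under 0.05 and a log2 fold of 1, per the file headers. The authors' peak score and distance to the gene start were used as description only. The deposited per-library values are regularised log2 values, fitted per list (file headers call them tag counts), so they are not comparable between lists. The equation behind them was solved for tag counts with 4 constants per list: 99.32% to 100% of values per list came out within 0.1 of a whole number, against 16.5% to 19.0% with constants 5% off.

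Windows of the 4 lists overlapping by at least 63 bp were matched (14471, 14451 with at least 10 scaled tags in 2 libraries). Of 61 Wnt pathway regions in all lists, 57 were matched and tested. TMM factors came from a re-implementation that trims 30% of ratios and 5% of levels. Limma 3.58.1 with a mean-variance trend (R 4.3.3) was fitted to log2(TMM-scaled tags + 2) of all 8 libraries by group, two-sided, with Benjamini-Hochberg adjustment over all windows. The test planned for raw counts was not run, since the deposited unit is log2, and levels are in CPM after TMM rather than in tags per 10000000 as planned. Fold changes on this scale understate low windows. The fit was run on simulated counts whose replicates varied less than these libraries do, so that run does not show its power here. Named windows are promoter windows in all lists, the 3 highest and 3 lowest per comparison by p, and those in 2 lists that share a factor or its absence; other windows named were chosen after their values were seen. Members and lists were chosen with earlier results of these data known.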

Additional observations from a re-analysis of the deposited data

How the results depend on the processing

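Limma called 0 windows in each of the 6 comparisons under every alternative run. Depth and 2 libraries a group limit these results: windows held as few as 4 tags per library, and partners differed by a median log2 ratio of up to 0.99. Receptor windows with identical coordinates in all lists numbered 0, so that setting gave no receptor value. Scaling by total tags moved the median of all windows to -0.145 for TNFa against untreated cells, -0.138 for TNFa+BMP4 against untreated cells and -0.149 for TNFa+BMP4 against BMP4.

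The alternatives moved the median log2 fold changes as follows, and no cause was tested. With total tags the receptor median was -0.72 for TNFa, -0.46 for TNFa+BMP4 and -0.67 for TNFa+BMP4 against BMP4, the transcriptional median for TNFa+BMP4 was -0.50, and the median of all pathway windows was -0.13 for TNFa+BMP4 and -0.26 against BMP4. With a pseudocount of 8 the receptor median was -0.47 for TNFa and -0.44 for TNFa+BMP4 against BMP4. With a mean count of at least 30 the receptor median was -0.72 for TNFa and -0.78 for TNFa+BMP4, and against BMP4 the pathway median was -0.0592 and the transcriptional median -0.51. With identical coordinates the TNFa+BMP4 pathway median was -0.24 and the transcriptional one -0.63, and against BMP4 the pathway median was -0.0239 and the ligand median 0.41. With an overlap of 1 bp the pathway median was -0.19 for TNFa+BMP4 and -0.041 against BMP4. With the deposited log2 values the pathway median was -0.11 for BMP4, 0.0768 for TNFa+BMP4 against BMP4 and 0.33 for the interaction, and the receptor median against BMP4 was -0.30. Without the second BMP4 and second untreated libraries, chosen after seeing the data, the ligand median was 0.018 for TNFa, -0.02 for TNFa+BMP4 and 0.19 against BMP4, the receptor median was -0.28 for TNFa and -0.36 against BMP4, the transcriptional median for TNFa+BMP4 was -0.14, and the pathway median for BMP4 was 0.20. At the authors' adjusted p-value under 0.001 the lists held 52 pathway windows with TNFa+BMP4, 49 with TNFa, 43 with BMP4 and 62 in untreated cells, and all 4 shared 23.

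Leaving out 1 library at a time gave pathway medians of -0.21 to -0.0428 for TNFa, -0.0253 to 0.11 for BMP4, -0.12 to -0.0039 for TNFa+BMP4, -0.16 to 0.11 for TNFa+BMP4 against TNFa, -0.20 to -0.0891 against BMP4 and -0.13 to 0.17 for the interaction. Ligand medians ran over 0.0381 to 0.70 for TNFa, -0.0008 to 0.71 for TNFa+BMP4 and 0.19 to 0.82 against BMP4. Receptor medians ran over -0.59 to -0.25, -0.64 to -0.30 and -0.52 to -0.28, and transcriptional medians over -0.48 to -0.22, -0.58 to -0.12 and -0.55 to -0.18, in the same order. A lone library left in a group was assumed to vary like the other groups. For BMP4 against untreated cells, the Wnt7b window ran over -0.18 (without the first untreated library) to 2.55, and a Lef1 window over -0.13 (without the first BMP4 library) to 2.28.

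With the replicate number as a block, limma called 0 windows in all 6 comparisons. At an unadjusted p under 0.05 the block found 2550 windows for TNFa+BMP4 against untreated cells, 869 for TNFa, 526 for BMP4, 474 for TNFa+BMP4 against TNFa, 1471 against BMP4 and 13 for the interaction. Among the 57 Wnt pathway windows these were 12, 6, 2, 2, 8 and 0 in the same order, and the lowest adjusted p was 0.103, for a Fzd1 and a Wnt10a window with TNFa+BMP4 against untreated cells. Deviations of same-numbered libraries from their group means correlated by 0.104 to 0.763, and with 2 libraries a group the numbers are not shown to pair them.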

Other observations

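Beyond Runx2, the target genes of the pathway gave 3 windows past an unadjusted p of 0.05 by limma where TNFa+BMP4 was higher than a single factor, and none passed adjustment. They were 2 of 51 against TNFa and 1 of 51 against BMP4, while 0.256% and 1.61% of all windows passed in either direction. Lower at that threshold were 1 target window for TNFa against untreated cells, 2 for TNFa+BMP4 against untreated cells and 1 against BMP4, all of Runx2. Id2, a common target of BMP signalling, had 71.0 and 100.0 CPM with TNFa+BMP4, 32.5 and 36 with TNFa, 75.6 and 70.0 with BMP4, against 59.8 and 29.3 in untreated cells, in a window at -2833 bp (log2 fold change 1.25 ± 0.55, SE, unadjusted p = 0.0492 and adjusted p = 1.0 against TNFa). Twist1, a regulator of osteoblast maturation, was named for a window at 118373 bp with 33.4 and 87.6 CPM with TNFa+BMP4, 44.4 and 67.2 with TNFa, 14.7 and 21 with BMP4, against 29.9 and 31.5 in untreated cells (1.52 ± 0.59, unadjusted p = 0.0314 and adjusted p = 0.989 against BMP4). Jag1, a Notch ligand, had an intronic window with 37.6 and 15.9 CPM with TNFa+BMP4, 5.13 and 8.40 with TNFa, 33.9 and 8.91 with BMP4, against 8.54 and 8.79 in untreated cells (1.63 ± 0.69, unadjusted p = 0.0429 and adjusted p = 1.0 against TNFa).

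The RefSeq promoter of Fzd4, a receptor gene with no window under its own name, held a window in all 4 lists that the files assign to Tmem135, a choice made after its values were seen.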
